A study of Rattus norvegicus with 8 samples.

Results

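The luteolin and methylglyoxal (MGO) arms of a chronic stress study in rats were set against each other. They were chosen by treatment label and make up 4 of the 8 RNA-seq libraries of the series: 1 prefrontal cortex (PFC) and 1 hippocampus library from stressed rats given MGO, and 1 of each from stressed rats given luteolin. The other 4 libraries, 1 per tissue from an unstressed saline control and from stressed rats given saline, serve as reference values. All animals were adult male Sprague-Dawley rats, an outbred strain. The 3 stressed groups shared a chronic stress protocol, called CMS in the sample labels. Drugs were injected daily during its last 3 weeks. The tissues of all 8 libraries, control included, were dissected in week 7. The labels give luteolin at 10 mg/kg/day. For MGO they give 5 mM/kg/day in one place and 100 mM/kg in another. Per the labels' protocols, both MGO tissues came from 1 rat. No luteolin rat appears in that protocol, so it is not known whether both luteolin tissues came from 1 animal.

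MGO is a reactive dicarbonyl that arises mainly as a by-product of glycolysis. It modifies arginine and lysine residues of proteins and is detoxified by the glyoxalase system, in which glyoxalase 1 acts on its adduct with glutathione. Luteolin is a plant flavone known for antioxidant and anti-inflammatory actions in cells, and it inhibits glyoxalase 1 in enzyme assays. The series' title concerns MGO and TrkB, a tyrosine kinase receptor for the neurotrophin BDNF, whose signalling shapes synaptic plasticity in both tissues. The comparison asks how far the profiles of the 2 agents under stress differ. Both arms carry the same code in their sample descriptions, unlike the CMS + saline libraries.

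The deposited values were taken as FPKM, a unit that divides fragment counts by the length of the gene model and by the size of the library. Of 31185 Ensembl gene IDs, 12155 averaged 1 FPKM or more across the series and were compared on the scale log2(FPKM + 1). No table at hand links these IDs to symbols, so genes appear by ID, at most 2 per direction in each comparison, and neither pathway lists nor tissue marker genes could be read. Absolute depth is unknown. Steps between low values gave the luteolin libraries a relative depth 1.35 times that of the MGO library in PFC and 1.28 times in hippocampus, so very low values were resolved more finely with luteolin. The part of depth in the differences was not tested. The luteolin hippocampus library stood apart from the other 3 of its tissue. The robust SD of its log2 differences was 0.44 against MGO, 0.42 against CMS + saline and 0.41 against control, while the other 3 pairs of hippocampus libraries gave 0.19 to 0.21. In PFC the robust SD between luteolin and MGO was 0.27, within the 0.19 to 0.33 of the 6 pairs.

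In place of marker genes, the tissue labels of the drug libraries were checked with genes that differed at least 2-fold between hippocampus and PFC in both the control and the CMS + saline pair. Of 242 genes high in hippocampus in those pairs, 210 were also higher in hippocampus than in PFC with MGO and 208 with luteolin. Of 223 genes high in PFC, 193 were higher in PFC with MGO and 191 with luteolin. These counts take direction only. A difference of at least 2-fold was kept by 143 of the 242 with MGO and 173 with luteolin, and by 151 and 152 of the 223. In the 4 drug libraries most of these genes, but not all, thus went the way of the tissue labels.

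Luteolin and MGO were first compared across both tissues, with tissue as a block, in a fit over the 8 libraries. Of 12155 genes, 19 (0.156%) differed between the agents (limma, adjusted p under 0.05), with 10 higher and 9 lower with luteolin. The same fit called 16 to 26 genes in each of the other 5 contrasts between treatments, which reuse these libraries, and the 19 lie within that range. At an unadjusted p under 0.05 the limma count was 962 of 12155, and the other 5 contrasts gave 549 to 1406. All 19 called genes were at least 2-fold apart in the same direction in both tissues. The call itself favours this, because the fit sets the difference against how far treatments varied between the tissues. Of the 13 called genes that were above 0 in every library, 7 were higher with luteolin by 1.73 to 5.34 on the log2 scale. The other 6 were lower, with estimates from -1.87 to -3.19. The median estimate over all genes tested was 0.014. Among the remaining 6 called genes, 4 were listed at 0 in 6 of the 8 libraries, so that their spread was estimated from very few values above 0.

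The 2 called genes with the highest estimates and the 2 with the lowest moved by large steps. With luteolin, ENSRNOG00000043300 had 125 FPKM in the PFC library and 75.1 FPKM in the hippocampus library, against 0.846 and 2.17 FPKM with MGO. It was also high in the CMS + saline libraries, with 149 and 125 FPKM, and low in the control libraries, at 1.63 and 0.484 FPKM. The luteolin libraries thus sat with CMS + saline and the MGO libraries with control, with no overlap between the levels (log2 difference 5.34, SE 0.42, limma adjusted p = 0.0385). ENSRNOG00000033625 was listed at 0 in all 6 other libraries and with luteolin reached 33.5 FPKM in the PFC and 16.9 FPKM in the hippocampus library (limma adjusted p = 0.0226).

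With MGO, ENSRNOG00000018448 had 54.9 FPKM in the PFC and 58.4 FPKM in the hippocampus library. With luteolin the PFC value was 0.199 FPKM and the hippocampus value was listed at 0 (limma adjusted p = 0.0385). It was listed at 0 in both control libraries and stood at 2.73 and 0.251 FPKM in the CMS + saline libraries, so the MGO libraries were the high ones. The values of ENSRNOG00000039876 with MGO were 42.5 FPKM (PFC) and 37.4 FPKM (hippocampus), and they lay between 33.3 and 38.8 FPKM in the 4 control and CMS + saline libraries. It was listed at 0 in both luteolin libraries (limma adjusted p = 0.00209), which made luteolin the treatment that stood apart.

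The 19 calls rest on few libraries. Leaving out any 1 of the 8 libraries lost most of them. The fits without a CMS + saline or a drug library also called genes outside the 19. With the 4 drug libraries alone, which leave 1 residual degree of freedom, limma called 0 of 12155 genes, and 429 had an unadjusted p under 0.05. Leaving out 1 library at a time gave 1 gene without either control library, 4 without either CMS + saline library, 8 and 6 without the PFC and the hippocampus MGO library, and 4 without the luteolin PFC library. Without the luteolin hippocampus library 17 genes were called, of which 4 were among the 19. ENSRNOG00000039876 was called under 16 of the 17 alternatives, with adjusted p from 0.000275 to 0.122. ENSRNOG00000018448 was called under 7 of them, and ENSRNOG00000043300 and ENSRNOG00000033625 under 6 each. As the tissues are not separate animals on the MGO side, these p-values set the difference against how far the treatments varied between PFC and hippocampus over the 8 libraries, and do not show whether it would recur in other rats.

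Within a tissue, each agent has 1 library, so differences have no replicate check and no test. In PFC, 774 genes (6.37%) were at least 2-fold apart, of which 325 were higher with luteolin and 449 were lower. The hippocampus count was 986 genes (8.11%), of which 457 were higher and 529 lower. The 6 pairs of PFC libraries gave 766 to 834 such genes, which places luteolin against MGO near the low end. The 6 hippocampus pairs gave 688 to 986, and luteolin against MGO was the highest of them. At least a 4-fold difference was found for 248 genes in PFC and 284 in hippocampus.

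A smaller set of genes was 2-fold apart in the same direction in both tissues: 134 genes (1.1%), 52 higher and 82 lower with luteolin. The 52 are 16.0% of the genes higher with luteolin in PFC and 11.4% of those higher in hippocampus. The 82 are 18.3% of the genes lower in PFC and 15.5% of those lower in hippocampus. Over all 12155 genes, 325 were higher and 449 lower in PFC, and 457 were higher and 529 lower in hippocampus. A nearly equal number, 123 genes (1.01%), was 2-fold apart in opposite directions. These are 15.9% of the PFC list and 12.5% of the hippocampus list. Across the 12155 genes, the PFC and hippocampus differences had a Pearson r of 0.049 and a Spearman rho of 0.074. These values describe genes of the same 4 libraries, not replicates. Of 10799 genes at 1 FPKM or more in all 4 drug libraries, 30 were 2-fold higher and 49 were 2-fold lower with luteolin in both tissues.

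**Figure D1:**
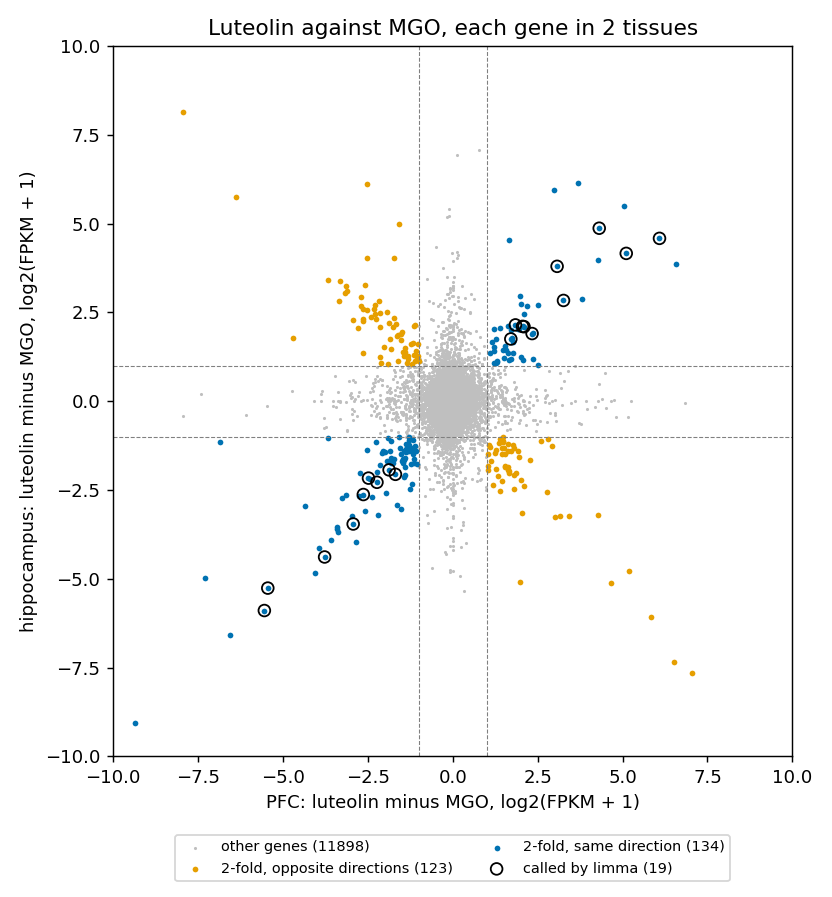
Difference of each of the 12155 genes between luteolin and MGO on the log2(FPKM + 1) scale, in PFC on the horizontal axis and in hippocampus on the vertical axis. Dashed lines mark 2-fold differences. The 134 genes of the same direction and the 123 of opposite directions form similar arms, and most genes cluster at 0 or along 1 axis. The 19 called genes (circles) lie on the former arms, where the fit favours calls.

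The 4 genes named next had the largest differences shared by both tissues within each direction, higher or lower with luteolin. They were ranked by the smaller of the PFC and hippocampus differences. Of the 4, 3 were listed at 0 in both libraries of an agent. The luteolin libraries had 32.3 FPKM (PFC) and 43.7 FPKM (hippocampus) of ENSRNOG00000042556, and both MGO libraries listed it at 0. Both CMS + saline libraries and the control hippocampus library also listed it at 0, whereas the control PFC library had 32.4 FPKM. ENSRNOG00000043300, described above, was the other gene of this rank that was higher with luteolin.

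The MGO libraries had 646 FPKM (PFC) and 535 FPKM (hippocampus) of ENSRNOG00000030963, and both luteolin libraries were listed at 0 for it. A value of 0 was also listed in both control libraries and in the CMS + saline hippocampus library, but the CMS + saline PFC library had 443 FPKM. ENSRNOG00000034071 had 93.2 and 95.2 FPKM in the MGO libraries of PFC and hippocampus, and 0 was listed for both luteolin libraries. In PFC the control and CMS + saline libraries had 99.5 and 89.1 FPKM, while in hippocampus both listed it at 0. For these last 2 genes and for ENSRNOG00000042556, the reference libraries differed between or within tissues, and limma called none of the 3 (adjusted p = 0.58 for each).

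**Figure D2:**
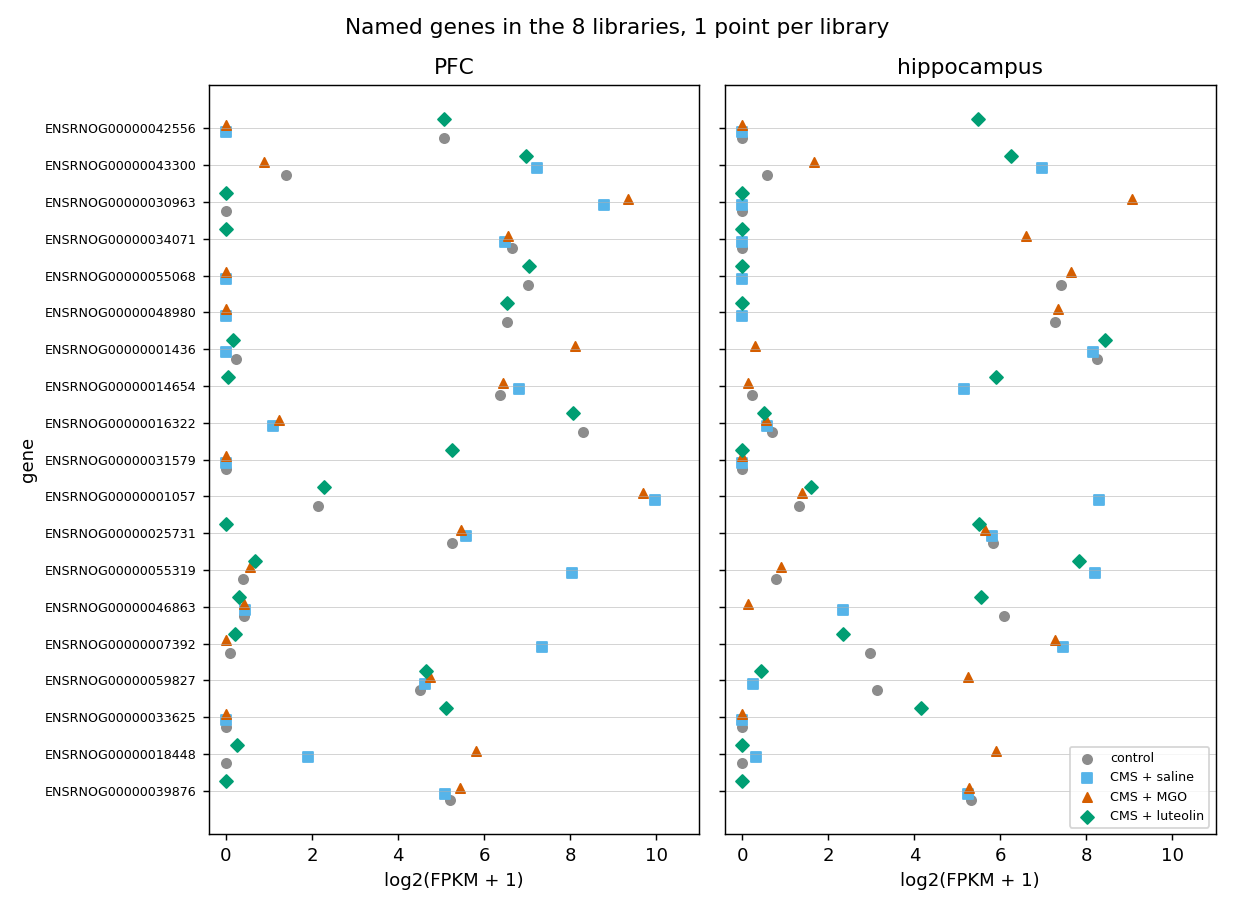
Level of each named gene as log2(FPKM + 1) in the PFC libraries (left) and the hippocampus libraries (right), 1 point per library, with the 4 treatments offset vertically. Most of these genes take either a high or a near-zero value, which the choice of the largest differences favours. Which treatments are high often changes from PFC to hippocampus, and the rules for opposite directions and for 1 tissue select such genes. ENSRNOG00000039876 is the clearest case of luteolin alone at 0 in both tissues.

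Some genes differed in 1 tissue while the other tissue showed a difference under 0.25 on the log2 scale. In PFC this held for 103 genes higher and 121 lower with luteolin among 5210 genes with such a small hippocampus difference. Of the 5210, 4.3% were 2-fold apart in PFC, below the 6.37% of all 12155 genes. ENSRNOG00000016322 was at 269 FPKM with luteolin and 1.37 FPKM with MGO in PFC, with 316 FPKM in control and 1.13 FPKM in CMS + saline. In the 4 hippocampus libraries it ran from 0.419 to 0.613 FPKM. ENSRNOG00000031579 was at 37 FPKM in luteolin PFC and listed at 0 in the other 7 libraries.

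ENSRNOG00000001057 was lower with luteolin in PFC, at 3.89 FPKM against 830 FPKM with MGO. The control PFC library had 3.43 FPKM and the CMS + saline PFC library 1008 FPKM. The hippocampus libraries had 2.04 FPKM with luteolin, 1.62 FPKM with MGO, 1.48 FPKM in control and 313 FPKM in CMS + saline. ENSRNOG00000025731 was listed at 0 in luteolin PFC and ran from 37 to 56.2 FPKM in the other 7 libraries, so that a single library set its difference.

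For hippocampus, the counts were 199 higher and 230 lower among 7513 genes with a PFC difference under 0.25. Of the 7513, 5.71% were 2-fold apart in hippocampus, below the 8.11% of all 12155 genes. ENSRNOG00000055319 was at 225 FPKM with luteolin and 0.853 FPKM with MGO in hippocampus. It was high in CMS + saline, at 293 FPKM, and low in control, at 0.72 FPKM. The PFC libraries had 0.593 FPKM with luteolin, 0.468 FPKM with MGO, 0.318 FPKM in control and 264 FPKM in CMS + saline. ENSRNOG00000046863 was at 45.7 FPKM with luteolin and 0.089 FPKM with MGO in hippocampus, with 66.9 FPKM in control and 4.09 FPKM in CMS + saline. The 4 PFC libraries had at most 0.358 FPKM.

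ENSRNOG00000007392 was lower with luteolin in hippocampus, at 4.06 FPKM against 154 FPKM with MGO. The CMS + saline hippocampus library, at 175 FPKM, resembled MGO, and the control library, at 6.79 FPKM, was closer to luteolin. In PFC the gene was listed at 0 with MGO and stood at 0.158 FPKM with luteolin, 0.0744 FPKM in control and 162 FPKM in CMS + saline. ENSRNOG00000059827 was at 0.346 FPKM with luteolin and 37.1 FPKM with MGO in hippocampus, with 7.84 FPKM in control and 0.185 FPKM in CMS + saline. All 4 PFC libraries held it between 21.7 and 25.6 FPKM.

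Which agent stood apart was read from the control and CMS + saline libraries, each placed nearer to luteolin or nearer to MGO on the log2 scale. Among the 774 PFC genes, both reference libraries lay nearer luteolin for 259 (33.5%) and nearer MGO for 210 (27.1%). For 168 genes only the control, and for 137 only the CMS + saline library, lay nearer luteolin. The order turned in hippocampus. There, both lay nearer MGO for 419 of 986 genes (42.5%) and nearer luteolin for 250 (25.4%), and the mixed placings held 165 and 152 genes. The counts in which MGO stood apart, 259 and 250, were close in both tissues, and luteolin stood apart for more genes in hippocampus. The placing was not counted over all 12155 genes, so these counts have no background share. Over all genes tested, the luteolin hippocampus library was also further from the others (robust SD 0.41 to 0.44) than those were from each other (0.19 to 0.21).

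The placing was less uniform across tissues. Of the 134 genes of the same direction, 45 had the same placing in PFC and hippocampus and 89 did not. Of the 45, MGO stood apart from the other treatments in 17 and luteolin in 15, while the control sided with luteolin in 6 and with MGO in 7. All 19 called genes had the same placing in both tissues, which the call itself favours because the fit reads all 8 libraries. Luteolin stood apart for 7 of them, 5 higher and 2 lower with luteolin. MGO stood apart for 6. For 5, luteolin sided with CMS + saline and MGO with control, and for 1 the reverse held.

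**Figure D3:**
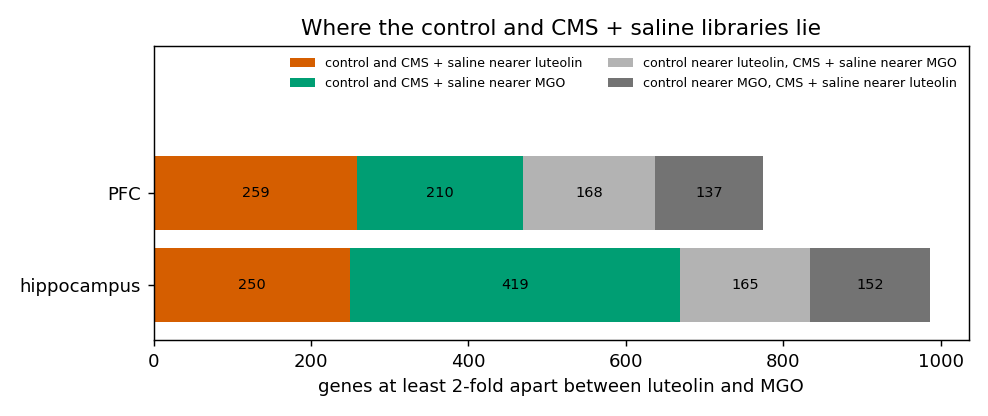
Number of genes at least 2-fold apart between luteolin and MGO in each tissue, divided by whether the control and CMS + saline libraries of that tissue lie nearer luteolin (orange: MGO apart), nearer MGO (green: luteolin apart) or are split (greys). The green segment is 210 genes in PFC and 419 in hippocampus, and the orange segments are 259 and 250.

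The difference between the agents depended on gene abundance in hippocampus. Genes with a mean of 100 FPKM or more had a median log2 difference of -0.306 between luteolin and MGO, with 15 genes 2-fold higher and 82 lower of 572. Genes with a mean from 5 to below 10 FPKM had a median of 0.118, with 100 higher and 80 lower of 2535. The same abundant genes had medians of -0.327 for luteolin against control and -0.318 against CMS + saline, and 0.015 for MGO against control. Within hippocampus, the shift thus appeared in the 3 pairs that hold the luteolin library. The 100 genes with the highest values held 19.1% of the summed FPKM in that library and 22.5% to 23.7% in the other 3 hippocampus libraries. In PFC the medians of luteolin against MGO ran from -0.004 in genes of 1 to below 2 FPKM to -0.077 in genes of 100 FPKM or more. A shift with abundance was not particular to luteolin. For CMS + saline against control in PFC, the medians of the same 2 groups of genes were -0.044 and 0.172. The 100 highest genes held 27.0% of the summed FPKM in the CMS + saline PFC library and 22.8% to 23.6% in the other PFC libraries. The part of the luteolin shift in the hippocampus counts was not tested. With quantile normalization, an alternative added after the values had been seen that gives all libraries the same distribution, 933 hippocampus genes were 2-fold apart.

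**Figure D4:**
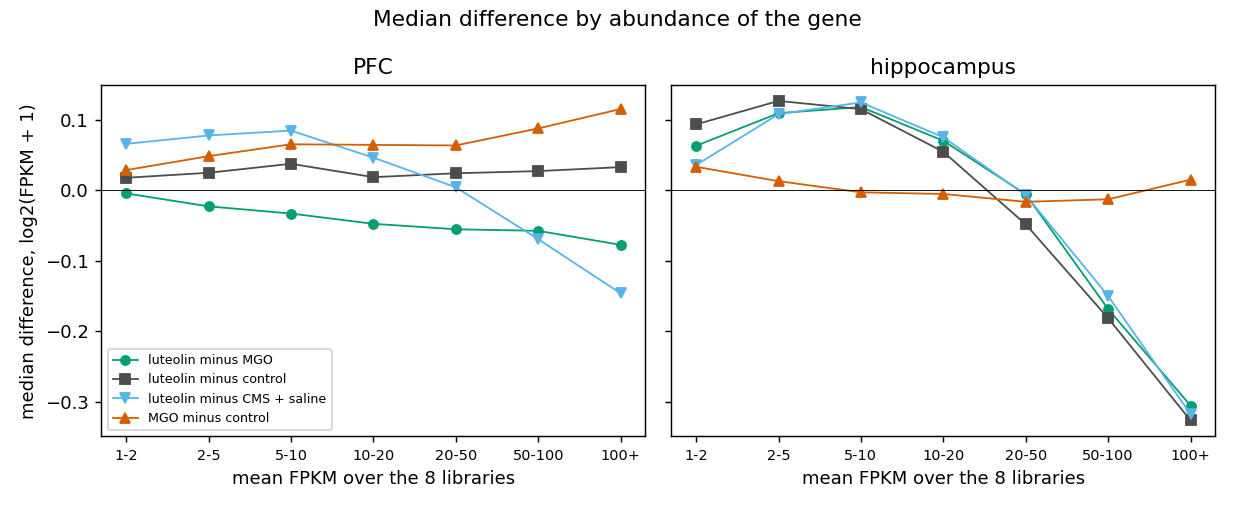
Median difference in log2(FPKM + 1) over genes grouped by their mean FPKM over the 8 libraries, in PFC (left) and hippocampus (right), for luteolin against each other treatment and for MGO against control. The 3 hippocampus lines with luteolin fall to between -0.306 and -0.327 in the most abundant genes, and the line for MGO against control stays between -0.016 and 0.034.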

How the data were processed

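The authors deposited 1 table with 8 value columns, all matched to samples by title, in a unit named neither in its header nor in the labels. It was taken as FPKM computed by the authors, because the values are not whole and the deposited columns sum to 300281 to 352740. Per the submitters' processing notes, FastQC 0.11.5, HISAT2 2.0.4, StringTie 1.2.4 and Rnor_6.0 (rn6) were used; no source used here gives their roles or the annotation release. Such values can move between overlapping gene models, and a gene at 0 is described as listed at 0, with no fold.

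None of the 31185 IDs matched the table of 47357 symbols or the promoter table, so the 16 gene lists and the marker genes were not evaluated and no sequence or position is given. Genes averaging 1 FPKM or more were analysed as log2(FPKM + 1), a scale that understates differences of low genes. The contrast of luteolin and MGO was tested in R 4.3.3 by limma 3.58.1 (two-sided, variance trend, tissue as a block, all 8 libraries, 3 residual and 1.967 prior degrees of freedom, Benjamini-Hochberg adjustment, threshold 0.05). Counts of 2-fold differences (1 on the log2 scale) and figures used Python 3.11.15, numpy 2.4.6, pandas 2.3.3 and matplotlib 3.10.9. Both steps were run on simulated data. The limma run was checked for the sign and the median error of the estimates, with no limit on false calls. Its noise was normal, without genes switching to 0 as seen here. Relative depth came from the ratio at which values below 0.2 FPKM pile up between a pair of libraries.

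Named genes are, with at most 2 per direction: the highest and lowest limma estimates among called genes; the largest smaller-of-both-tissues differences in the same and in opposite directions; and, per tissue, the largest differences among genes with a difference under 0.25 in the other tissue. Genes at 1 FPKM or more in the drug libraries are given as counts only. The comparison, lists and rules were chosen with earlier results of these data known. The tissue check, abundance groups and counts of genes listed at 0 were chosen after the values had been seen.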

Additional observations from a re-analysis of the deposited data

Results flagged for a closer look

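Between luteolin and MGO, 123 genes were at least 2-fold apart in opposite directions in PFC and hippocampus, 56 of them higher with luteolin in PFC and 67 higher with luteolin in hippocampus. With 1 library per agent and tissue, the difference between tissues was not tested. ENSRNOG00000055068 was at 132 FPKM with luteolin in PFC and listed at 0 with MGO, whereas in hippocampus it was listed at 0 with luteolin and at 200 FPKM with MGO. Its control libraries had 129 and 169 FPKM, and both CMS + saline libraries listed it at 0. ENSRNOG00000048980 followed the same arrangement in all 8 libraries, with 91.4 FPKM for luteolin in PFC, 160 FPKM for MGO in hippocampus, and 91.7 and 154 FPKM in the control libraries. ENSRNOG00000001436 was at 0.124 FPKM with luteolin in PFC and 276 FPKM with MGO, and at 345 against 0.233 FPKM in hippocampus. Its control and CMS + saline libraries were low in PFC, at 0.173 and 0.00629 FPKM, and high in hippocampus, at 304 and 283 FPKM, so that the MGO libraries went against the others in both tissues. ENSRNOG00000014654 was at 0.0302 FPKM with luteolin in PFC and 85.3 FPKM with MGO, and at 58.5 against 0.106 FPKM in hippocampus, with 81.4 and 111 FPKM in control and CMS + saline PFC and 0.163 and 34.5 FPKM in control and CMS + saline hippocampus.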

How the results depend on the processing

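The limma count of 19 genes fell to 0 with only the 4 drug libraries (429 at an unadjusted p under 0.05), 12 with no tissue block, 10 with a pseudocount of 0.1 and 8 with a mean of at least 5 FPKM. It ranged from 1 to 17 with 1 library left out. Where a library is left out, the lone library of an arm is assumed to vary like the others. With median-ratio size factors, a pseudocount of 5, no filter on low values, no variance trend or quantile normalization it stayed within 17 to 19. The genes were not all the same. With 1 library left out, most of the 19 were no longer called. With no filter, 13 of the 18 called were among the 19. ENSRNOG00000043300 and ENSRNOG00000018448 were not called there (limma adjusted p = 0.071 for each). Counts without a test moved most with the threshold. At 1.5-fold they were 1521 genes in PFC, 2683 in hippocampus (1352 higher and 1331 lower with luteolin, which turned the balance), 316 in the same and 291 in opposite directions, and 37 and 42 with MGO or luteolin apart in both tissues. At 4-fold the same 6 counts were 248, 284, 45, 40, 5 and 6, and with a pseudocount of 5 they were 408, 531, 75, 61, 8 and 9. A pseudocount of 0.1 raised them to 1011, 1375, 190, 179, 20 and 19. With a mean of at least 5 FPKM, PFC gave 507 genes, and 11 and 9 genes had MGO or luteolin apart in both tissues. Apart from the stricter or looser limits themselves, the cause was not tested. None of 152 recomputed tissue differences of the 19 named genes changed sign under the pseudocounts, size factors or quantile normalization where it was at least 2-fold. Low genes are limited by depth, which could not be put in reads. No paired analysis was possible because the labels give no replicate numbers and each group has 1 library. The alternatives for gene lists were not run, as no ID was paired with a symbol.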

Other observations

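Some genes at 10 FPKM or more with one agent were listed at 0 with the other. In PFC this held for 16 of 5204 such genes that were high with luteolin and for 14 of 5357 that were high with MGO. In hippocampus the counts were 9 of 5523 and 19 of 5276. The pattern was present in both tissues for 4 of 4627 genes high with luteolin and 6 of 4718 genes high with MGO. Such steps were counted only between luteolin and MGO, so the counts have no background from other pairs. The pattern is not particular to the drugs. ENSRNOG00000055068, described above, stepped from 129 FPKM (PFC) and 169 FPKM (hippocampus) with control to 0 with CMS + saline in both tissues. In total, 177 of the 12155 genes were listed at 0 in at least 1 of the 4 drug libraries.

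The genes that were 2-fold higher in hippocampus than in PFC in both the control and the CMS + saline pair were also set between the agents. Their median log2 difference between luteolin and MGO was 0.21 in hippocampus and -0.14 in PFC, beside medians over all genes of 0.055 and -0.036. The hippocampus-minus-PFC difference of these 242 genes had a median of 1.56 with luteolin and 1.15 with MGO. For the 223 genes high in PFC, the median was -1.36 with luteolin and -1.39 with MGO.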
